A study of Rattus norvegicus with 4 samples.

Results

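Nefl, Nefm, Nefh, Ina and Prph encode the intermediate filament proteins of sensory neurons: the light, medium and heavy neurofilament subunits, alpha-internexin and peripherin. The 5 genes were taken by symbol from the 25629 features of the count tables, and each symbol occurred once. The cells came from ipsilateral L4-L6 dorsal root ganglia (DRG), which hold the cell bodies of the sensory neurons of the hind limb, of wild-type male SD rats described as naïve. The labels set a CPIP group against a Sham group; they do not spell out CPIP, which in the field stands for chronic post-ischaemia pain, evoked by a period of ischaemia and reperfusion of the hind paw. Each group had 2 libraries, each from the pooled tissue of 3 rats, and neither the rats' age nor the time after the procedure is stated in the labels. Because animals were pooled, the spread between libraries is a spread between pools and not between single rats.

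Neurofilaments are obligate heteropolymers in which the light subunit forms the core and the medium and heavy subunits carry long, phosphorylated side arms. They fill the axons of large, fast-conducting fibres and are known to set axon calibre there. Peripherin is the intermediate filament protein typical of small sensory neurons and co-assembles with the neurofilament subunits. Alpha-internexin is abundant in the central nervous system and can also join the neurofilament polymer. In the GRCr8 assembly Nefl and Nefm lie on one chromosome with 1 gene listed between them, the pseudogene Slc25a3-ps1.

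The libraries held 11829 to 12828 cell barcodes and 60885664 to 64550637 unique molecular identifiers (UMIs, 1 per captured molecule). Of 49149 distinct barcodes, 19 occurred in more than 1 library. A total of 10562 cells were kept as neurons, with 2618 and 2296 in CPIP 1 and CPIP 2, against 2964 and 2684 in Sham 1 and Sham 2. The 6 clusters so named had 13 or 14 of the 15 neuron markers in at least 10% of their cells. CPIP 2 stood apart from the other libraries in its number of genes with a raised level. Among the 4316 genes that averaged 32 CPM or more in neurons, 166 (3.85%) had in CPIP 2 at least 1.33 times the highest level of the other 3 libraries. The same count was 7 for CPIP 1, 3 for Sham 1 and 2 for Sham 2. The cut-off of 1.33 was the ratio of Prph itself in CPIP 2, and only departures upward were counted. CPM here are UMIs of a gene per 1000000 UMIs of the summed cells. UMIs were not divided by transcript length, so levels of one gene are compared across cells and samples, and genes are not ranked against each other by level.

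The neurons fell into 14 sub-clusters, formed without the 5 genes, and each is called here by its leading genes. Marker lists named the Pvalb sub-cluster as like large A-beta or proprioceptive neurons, Cbln2-Ntrk2 as like A-delta low-threshold mechanoreceptors, and Tafa4 as like C-fibre low-threshold mechanoreceptors. They named Trpm8 as like cold-sensing Trpm8 neurons, Adcyap1-Calca as like peptidergic nociceptors, Sst-Nppb as like Sst or Nppb neurons of itch, and Anxa1, Iapp-Nnat and Myorg-Plxnc1 as like non-peptidergic nociceptors. The Kcnv1, S100a16, Crtac1 and Mrgprb4 sub-clusters matched no list by the rule and are named by gene only. A sub-cluster of 208 cells led by glial genes was kept apart as mixed. Levels are given for the 11 sub-clusters with at least 30 cells in every library, of which the 9 with at least 50 were tested. Crtac1 had 1 cell in CPIP 1, and Myorg-Plxnc1 had 23 to 31 cells per library. CPIP 1 also stood apart in its cells at Leiden resolution 1.0. One cluster led by Iapp and Nnat held 5 cells of CPIP 1, against 178 of CPIP 2, 219 of Sham 1 and 258 of Sham 2. Another led by Iapp and Crh held 631 cells of CPIP 1, against 214 of CPIP 2, 488 of Sham 1 and 329 of Sham 2. The sub-clusters were formed from these same cells, so differences between them are given as a description, without a test.

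The neurofilament subunits were highest in the Pvalb sub-cluster. Nefl reached 12174 and 11114 CPM there in CPIP 1 and CPIP 2, against 12898 and 9807 CPM in Sham 1 and Sham 2. Nefm reached 15004 and 13567 CPM in the CPIP libraries, against 18219 and 13905 CPM in the Sham libraries. Nefh reached 847 and 1194 CPM in the CPIP libraries, against 1185 and 858 CPM in the Sham libraries. For each subunit the lowest Pvalb library lay above every library of the next sub-cluster. The Pvalb cells had a median of 1411 UMIs, few beside the medians of 2336 to 14068.5 UMIs in the other sub-clusters, and a median mitochondrial share of 2.06%. At a finer clustering, looked at in this way after the data had been seen, 436 of the 707 Pvalb cells fell in a cluster that matched no list, led by Pcp4 and Ntrk3, with a median of 992.5 UMIs. Another 267 fell in a cluster led by Pvalb and Spp1, with a median of 2949 UMIs. The Pcp4 cluster took 113 and 83 cells from CPIP, against 136 and 104 from Sham, and the Pvalb-Spp1 cluster took 81 and 110 from CPIP, against 29 and 47 from Sham. Nefl had 13342 and 12279 CPM in CPIP, against 13994 and 10400 CPM in Sham, among the Pcp4 cells. It had 11422 and 10861 CPM in CPIP, against 10418 and 9097 CPM in Sham, among the Pvalb-Spp1 cells.

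**Figure D1:**
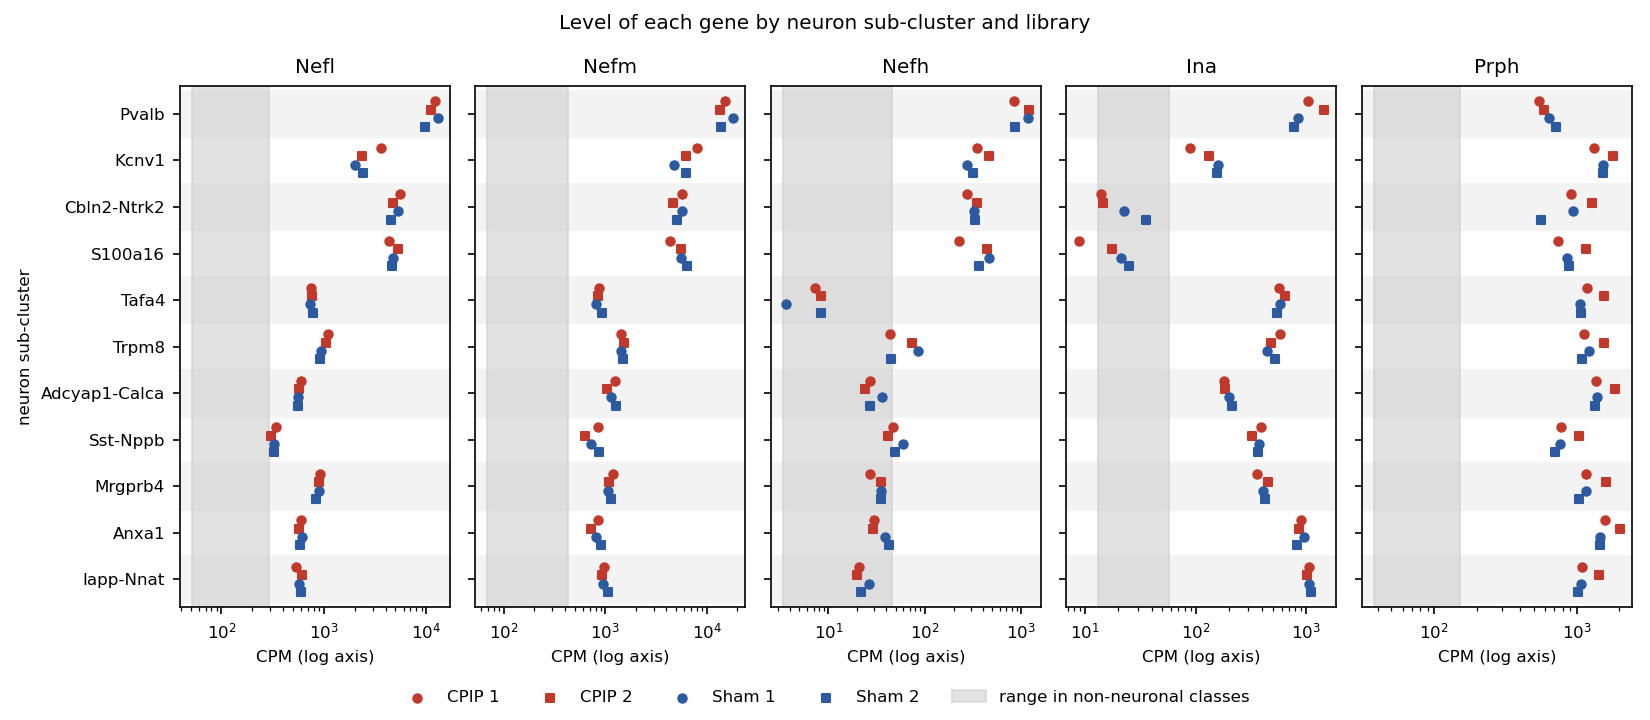
Level of each gene (CPM, log axis) in 11 neuron sub-clusters, with a point for each library (CPIP 1, CPIP 2, Sham 1, Sham 2) and a grey band for the range over libraries and non-neuronal cell classes. Nefl, Nefm and Nefh are highest in Pvalb, Ina lies in the grey band in Cbln2-Ntrk2 and S100a16, and Prph is lowest in Pvalb.

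Of the 11 sub-clusters, Cbln2-Ntrk2, S100a16 and Kcnv1 followed for all 3 subunits. Nefl averaged 5034 ± 463 CPM in Cbln2-Ntrk2, 4755 ± 427 CPM in S100a16 and 2589 ± 695 CPM in Kcnv1 (SD, n = 4 libraries here and for the levels that follow). Nefm averaged 6320 ± 1307 CPM in Kcnv1, 5481 ± 822 CPM in S100a16 and 5299 ± 486 CPM in Cbln2-Ntrk2, and these ranges overlapped. Nefh averaged 376 ± 107 CPM in S100a16, 350 ± 80.5 CPM in Kcnv1 and 319 ± 32.8 CPM in Cbln2-Ntrk2, which likewise overlapped. The next sub-cluster, Trpm8, lay below all libraries of these sub-clusters. It had 1001 ± 90.9 CPM of Nefl, 1478 ± 52.0 CPM of Nefm and 61.9 ± 21.1 CPM of Nefh. Crtac1, left out for its 1 cell in CPIP 1, was also rich in the subunits. It had 4047 CPM of Nefl in CPIP 2, against 4354 and 4011 CPM in Sham 1 and Sham 2.

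Among the remaining sub-clusters Nefl and Nefm were lower but present. Nefh was also lower, and much of it lay within the range of non-neuronal classes. Nefl was lowest in Sst-Nppb at 323 ± 14.8 CPM, and its mean in Pvalb was 35.6 times that level, 30.3 to 39.8 times in single libraries. Nefm was also lowest in Sst-Nppb, at 765 ± 116 CPM, a 19.8-fold span below Pvalb. Nefl had 888 ± 36.1 CPM in Mrgprb4 and 755 ± 20.9 CPM in Tafa4, and 3 nociceptor-like sub-clusters (Anxa1, Iapp-Nnat and Adcyap1-Calca) overlapped between 568 and 588 CPM on average. Of the 10 pairs of neighbours in its order, 6 did not overlap for Nefl, against 4 for Nefm, 3 for Nefh, 4 for Ina and 0 for Prph.

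Nefh was lowest in Tafa4. There it had 7.33 and 8.29 CPM in the CPIP libraries, against 3.65 and 8.42 CPM in the Sham libraries, from 44 UMIs in all. This lies within the 3.38 to 46.1 CPM of non-neuronal classes, so Nefh was not detectable in Tafa4 above background and no fold is given. Every library of 4 more sub-clusters lay within that range. Nefh was 19.8 to 26.2 CPM in Iapp-Nnat, 24.1 to 36.0 CPM in Adcyap1-Calca, 27.1 to 35.5 CPM in Mrgprb4 and 28.8 to 42.6 CPM in Anxa1. The top of the range came from myelinating Schwann cells. Satellite glia had 9.14 to 12.9 CPM of Nefh, below every library of these 4 sub-clusters. Sst-Nppb and Trpm8 reached into the non-neuronal range, with 41.8 and 43.8 CPM in their lowest libraries. The low Nefh level of Tafa4 stood beside 755 CPM of Nefl. The Nefh to Nefl ratio was 0.00913 ± 0.00280 in Tafa4, an upper bound given the background, against 0.0375 to 0.152 in the other 10 sub-clusters. Background may also add to the ratios of Iapp-Nnat, Adcyap1-Calca, Mrgprb4 and Anxa1, where Nefh lay above its level in satellite glia. The highest mean of that ratio was in Sst-Nppb, at 0.152 ± 0.0222. There Nefh was partly within its non-neuronal range. Nefl, from 304 CPM, was close to the 289 CPM that myelinating Schwann cells reached.

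Ina ran in another order. It was highest in Iapp-Nnat, with 1069 and 1028 CPM in the CPIP libraries, against 1060 and 1117 CPM in the Sham libraries. Pvalb followed with 1035 ± 305 CPM and Anxa1 with 890 ± 57.2 CPM, and neighbouring ranges overlapped among these 3. Within Pvalb it was uneven, with 1619 and 1752 CPM in CPIP, against 1765 and 1600 CPM in Sham, among the Pvalb-Spp1 cells, and 209 and 118 CPM in CPIP, against 453 and 156 CPM in Sham, among the Pcp4 cells. The other neurofilament-rich sub-clusters among the 11 had little of it. Kcnv1 had 135 ± 32.8 CPM, Cbln2-Ntrk2 21.7 ± 10.2 CPM and S100a16 18.2 ± 7.02 CPM. These last 2 values rest on 49 and 104 UMIs and lie within the 12.97 to 57.3 CPM of non-neuronal classes or below it, so Ina was not detectable there above the level of cells that should lack it. The peptidergic-like Adcyap1-Calca sub-cluster also had little, 196 ± 15.1 CPM.

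Prph varied least. Its highest mean was in Anxa1, with 1574 and 2012 CPM in the CPIP libraries, against 1471 and 1465 CPM in the Sham libraries. Its lowest was in Pvalb, with 549 and 588 CPM in the CPIP libraries, against 641 and 721 CPM in the Sham libraries. The span of the means was 2.61-fold, and every pair of neighbours in the order overlapped. Kcnv1, rich in neurofilament subunits, was also among the highest for Prph at 1558 ± 199 CPM, and Sst-Nppb, the lowest for Nefl, was the second lowest for Prph at 822 ± 149 CPM.

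The composition of the filament genes thus differed between sub-clusters. The Nefm to Nefl ratio of UMIs was 2.47 ± 0.216 in Kcnv1, 2.36 ± 0.287 in Sst-Nppb and 2.06 ± 0.184 in Adcyap1-Calca. It was 1.05 ± 0.0588 in Cbln2-Ntrk2, 1.15 ± 0.0332 in Tafa4 and 1.15 ± 0.155 in S100a16, and no library of these 3 reached the lowest library of the first 3. The Ina to Nefl ratio was 1.86 ± 0.137 in Iapp-Nnat and 0.00380 ± 0.00146 in S100a16, where Ina is at background, so that no fold is given. The ratio of Prph to the sum of Nefl, Nefm and Nefh spanned 49.9-fold, with 1.14 ± 0.264 in Anxa1 and 0.0229 ± 0.00456 in Pvalb.

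**Figure D2:**
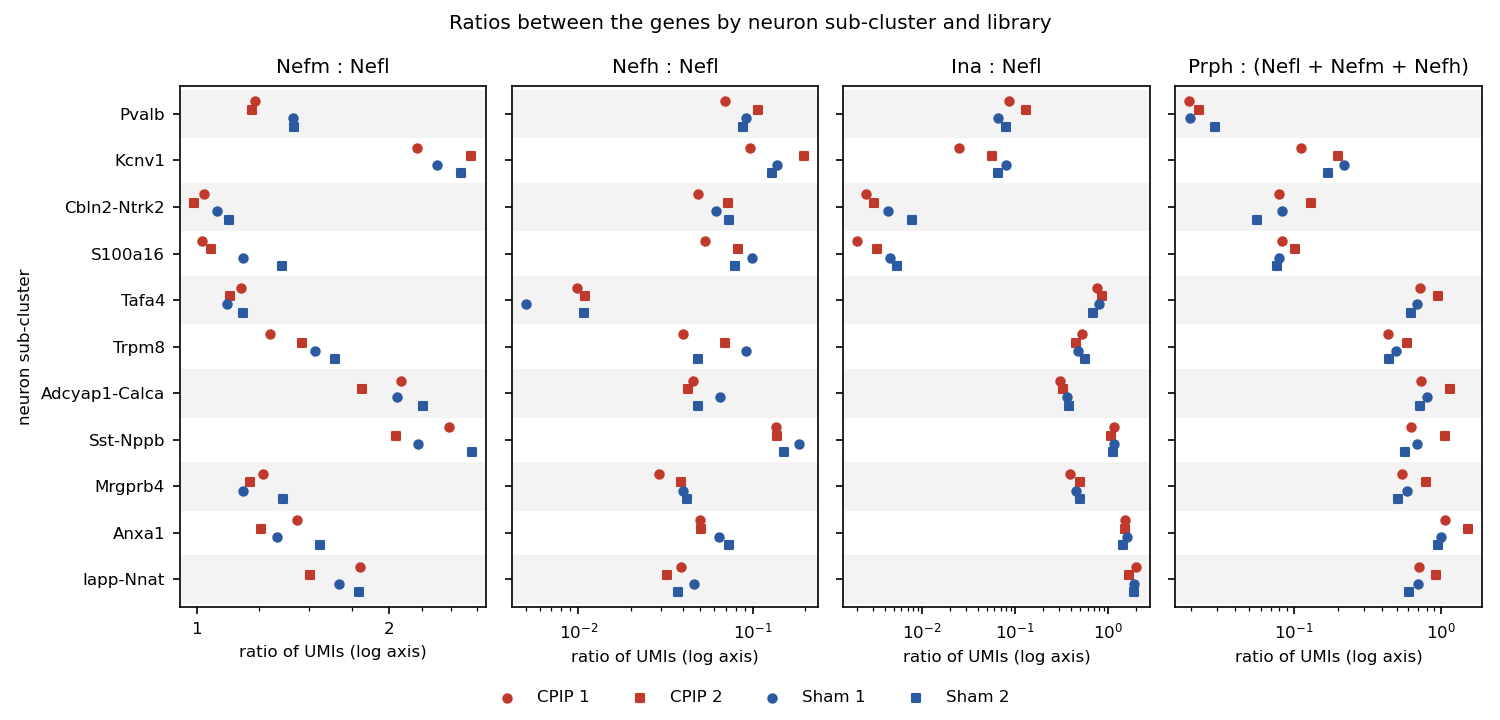
Ratios of summed UMIs (log axes) between the genes in 11 neuron sub-clusters, with a point for each library. Nefm : Nefl is highest in Kcnv1, Sst-Nppb and Adcyap1-Calca, Nefh : Nefl is lowest in Tafa4, Ina : Nefl is lowest in S100a16 and Cbln2-Ntrk2, and Prph : (Nefl + Nefm + Nefh) is lowest in Pvalb.

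A small part of the neurons supplied much of the neurofilament signal. The Pvalb and S100a16 sub-clusters held 7.49% and 7.83% of neurons in CPIP 1 and 8.41% and 9.93% in CPIP 2, against 5.57% and 6.78% in Sham 1 and 5.70% and 5.55% in Sham 2. Pvalb supplied 19.9% ± 4.28 of the Nefl UMIs and 26.3% ± 6.83 of the Nefh UMIs of all neurons (SD, n = 4 libraries), and S100a16 supplied 21.1% ± 5.52 and 24.0% ± 6.02. Ina UMIs came mostly from small-neuron sub-clusters, with 37.1% ± 6.33 from Iapp-Nnat and 15.3% ± 2.33 from Anxa1. Prph UMIs came from Adcyap1-Calca (26.6% ± 2.69), Iapp-Nnat (17.1% ± 3.48) and Mrgprb4 (14.8% ± 3.00), and 1.15% ± 0.129 came from Pvalb. The level over all neurons is a mean over these sub-clusters, weighted by their UMIs.

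Across the 11 sub-clusters, which share libraries, the log2 mean levels of the 3 subunits ran together. Pearson's r was 0.97 between Nefl and Nefm, 0.94 between Nefm and Nefh and 0.88 between Nefl and Nefh. Ina gave -0.45 with Nefl, and Prph gave -0.53 with Nefl. Ina and Prph gave 0.12 with each other. Background limits the values for Nefh, which was not detectable above it in Tafa4. In Iapp-Nnat, Adcyap1-Calca, Mrgprb4 and Anxa1, Nefh lay within the range of non-neuronal classes but above satellite glia. Background also limits the values for Ina, through S100a16 and Cbln2-Ntrk2. Among 5823 genes with at least 32 CPM in some sub-cluster, the profile most like Nefl was that of Fgf9, a fibroblast growth factor (r = 0.97), then those of Agpat3, Sdhaf2 and Ndufa10. For Nefm these were Tecr (r = 0.98), Dennd1b, Ggps1 and Fgf9. For Nefh they were Bfar (r = 0.98), Ado, Rnf157 and Eif4g3. The likeness was weaker for Ina, led by Smarca2, a chromatin remodelling ATPase (r = 0.89), with Kif1a, an axonal transport motor, second (r = 0.86), then Glcci1 and Tshz3. For Prph it was led by S100a11 (r = 0.89), then Ids and Astn1. With 11 points chosen from 5823 genes, these values are descriptions.

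Cells other than neurons carried a low level of all 5 genes. Over 7 non-neuronal classes and 4 libraries, Nefl ranged from 51.6 to 289 CPM, Nefm from 68.7 to 426 CPM, Nefh from 3.38 to 46.1 CPM, Ina from 12.97 to 57.3 CPM and Prph from 37.7 to 151 CPM. The range for Nefl reached close to the lowest neuronal value, 304 CPM in Sst-Nppb, through myelinating Schwann cells. These also gave the top of the ranges for Nefm and Nefh. Satellite glia had 80.7 to 105 CPM of Nefl and 9.14 to 12.9 CPM of Nefh. With each cell thinned to 1000 UMIs, 56.4% ± 1.76 of neurons had a Nefl UMI, against 11.6% ± 1.34 of endothelial cells (SD, n = 4 libraries). Unthinned shares were 93.7% ± 0.885 and 29.2% ± 4.38, and thinning left out 513 neurons (247 in CPIP) and 335 endothelial cells (136 in CPIP). The thinned share for Prph was 66.4% ± 5.55 in neurons, against 7.55% ± 1.98 in endothelial cells. The Ina share was 38.6% ± 0.928 in neurons, against 2.65% ± 0.428 in endothelial cells. The thinned Ina share of 2.76% ± 2.39 in S100a16 neurons was at that background, and so was the 0.191% ± 0.382 of Tafa4 neurons with a Nefh UMI, against 1.65% ± 0.801 of endothelial cells. Free RNA can give UMIs to cells that do not express a gene, so these shares are read as background.

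In all neurons, none of the 5 genes differed between CPIP and Sham by the test. The quasi-likelihood test of edgeR on UMI sums per library called 0 of the 5, beside 0 of all 13644 genes tested (0%). Of these, 536 genes had an unadjusted p under 0.05, and DESeq2 called 9 genes, none of them of the 5. Nefl had 1324 and 1593 CPM in CPIP 1 and CPIP 2, against 1411 and 1067 CPM in Sham 1 and Sham 2, a log2 fold change of 0.24 ± 0.16 (SE; adjusted p = 0.969). The groups overlapped, and with equal weight for each of the 11 sub-clusters the log2 difference was 0.08. The fold change was 0.46 without Sham 1, 0.051 without Sham 2, 0.37 without CPIP 1 and 0.11 without CPIP 2. Nefm had 1791 and 2030 CPM in CPIP, against 1966 and 1829 CPM in Sham, a log2 fold change of 0.02 ± 0.093 (adjusted p = 0.994). Nefh had 67.5 and 124 CPM in CPIP, against 105 and 74.0 CPM in Sham. Pvalb, the largest source of Nefh UMIs, held 2.51% and 3.37% of neuron UMIs in CPIP, against 2.04% and 1.57% in Sham. S100a16, the next largest source, held 6.09% and 8.53% in CPIP, against 6.21% and 3.48% in Sham. The part of these shares in the Nefh level was not tested. With equal weight for each sub-cluster Nefh kept its order of libraries, at 172 and 243 CPM in CPIP, against 231 and 191 CPM in Sham. Its log2 fold change was 0.11 ± 0.30 (adjusted p = 0.992) and depended on single libraries, with 0.48 without CPIP 1 and -0.39 without CPIP 2. Ina was the steadiest, with 543 and 498 CPM in CPIP, against 539 and 526 CPM in Sham, a log2 fold change of -0.02 ± 0.079 (adjusted p = 0.993).

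**Figure D3:**
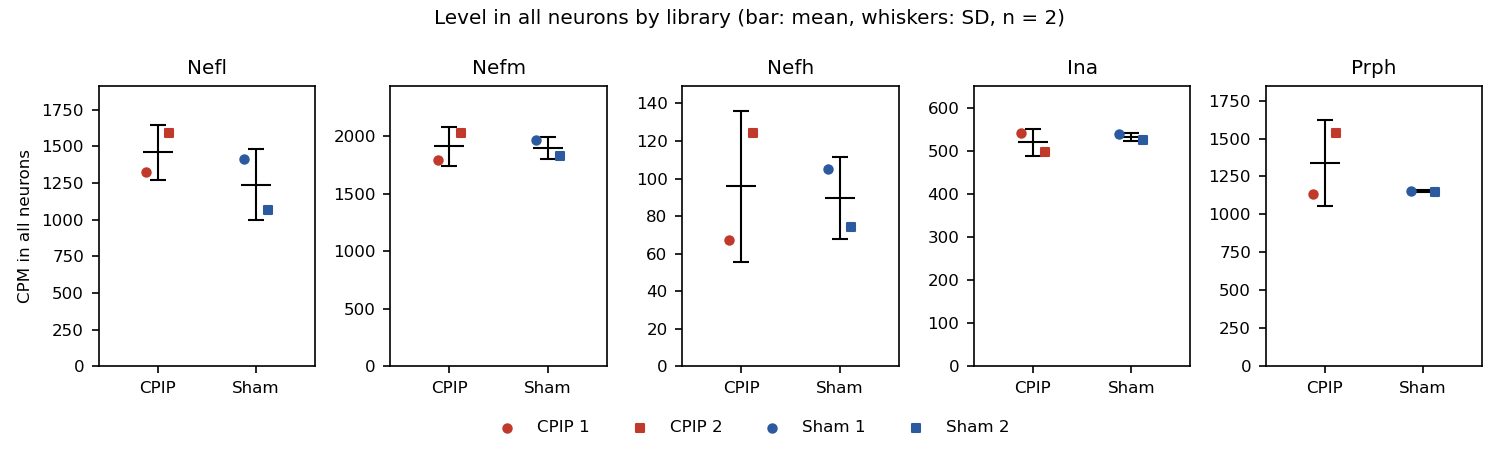
Level of each gene (CPM, axes from 0) in all neurons of the 2 CPIP and 2 Sham libraries, with the mean and SD of each group (n = 2). The groups overlap for all 5 genes, and Prph in CPIP 2, at 1538 CPM, lies above the other 3 libraries at 1136 to 1156 CPM.

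Prph in neurons had 1136 CPM in CPIP 1 and 1538 CPM in CPIP 2, against 1156 CPM in Sham 1 and 1147 CPM in Sham 2. CPIP 1 lay below both Sham libraries and CPIP 2 above them, so the groups overlapped. The log2 fold change of 0.22 ± 0.14 (adjusted p = 0.969) was 0.42 without CPIP 1 (adjusted p = 0.0159), a fit that called 5.44% of all genes, and -0.0036 without CPIP 2, where 0.443% were called. CPIP 2 was the highest library for Prph in 10 of the 11 sub-clusters, with 1.23 to 1.59 times the mean of the other 3 libraries there. The exception was Pvalb, at 0.923 times. The same held in 2557 low-UMI barcodes that resembled neurons and enter no test, with 1077 and 1453 CPM in CPIP, against 1033 and 1094 CPM in Sham. Satellite glia, with their background level, had 41.8 and 47.3 CPM in CPIP, against 40.8 and 37.7 CPM in Sham. Within neurons CPIP 2 also had the highest summed level of 12 satellite glia markers (807 and 900 CPM in CPIP, against 622 and 768 CPM in Sham). The 9 fibroblast markers summed to 102 and 131 CPM in CPIP, against 93.3 and 79.4 CPM in Sham. No marker of either list was at 0 in all libraries. The 15 neuron markers were also highest in CPIP 2, at 18516 and 19538 CPM in CPIP, against 18340 and 19196 CPM in Sham. CPIP 2 was not the highest library for the marker sums of myelinating Schwann, non-myelinating Schwann, macrophage and endothelial cells. Those of myelinating Schwann cells, for example, were 926 and 935 CPM in CPIP, against 965 and 905 CPM in Sham. Median UMIs per neuron were close, at 5850 and 5804.5 in CPIP, against 5893 and 5920 in Sham. The part of these differences in the Prph value was not tested.

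**Figure D4:**
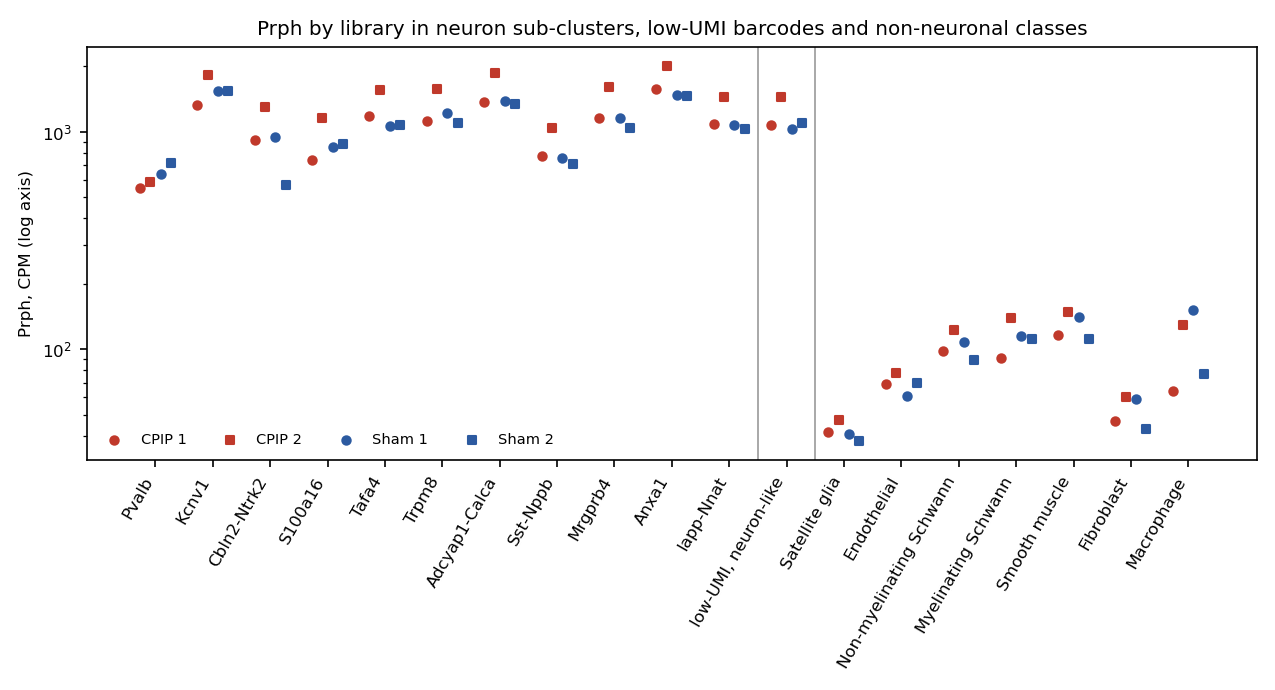
Prph level (CPM, log axis) by library in 11 neuron sub-clusters, in low-UMI neuron-like barcodes (between the vertical lines) and in 7 non-neuronal classes (right). CPIP 2 is the highest library in every neuron sub-cluster but Pvalb and in the low-UMI barcodes, while CPIP 1 lies near the Sham libraries.

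Within the sub-clusters no member passed the test either. Of 45 tests of 5 genes in 9 sub-clusters, edgeR called 0. The share of all tested genes that was called was 0% in Pvalb, Trpm8, Adcyap1-Calca and Sst-Nppb, 0.0118% in S100a16, 0.0238% in Tafa4, 0.0101% in Mrgprb4, 0.0115% in Anxa1 and 0.00995% in Iapp-Nnat. The Kcnv1 and Cbln2-Ntrk2 sub-clusters, tested after the data had been seen because they had 40 and 49 cells in 1 library, gave 0 calls among the members, beside 0.0587% and 0% of all genes. The unadjusted p was under 0.05 for 9 of the 55 values, beside 4.9% of all gene and sub-cluster pairs tested. The 55 values share 4 libraries. These were Ina in Pvalb, Nefl, Nefm and Nefh in Kcnv1, Prph in Tafa4, Mrgprb4 and Anxa1, Nefl in Trpm8 and Nefh in Anxa1.

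**Figure D5:**
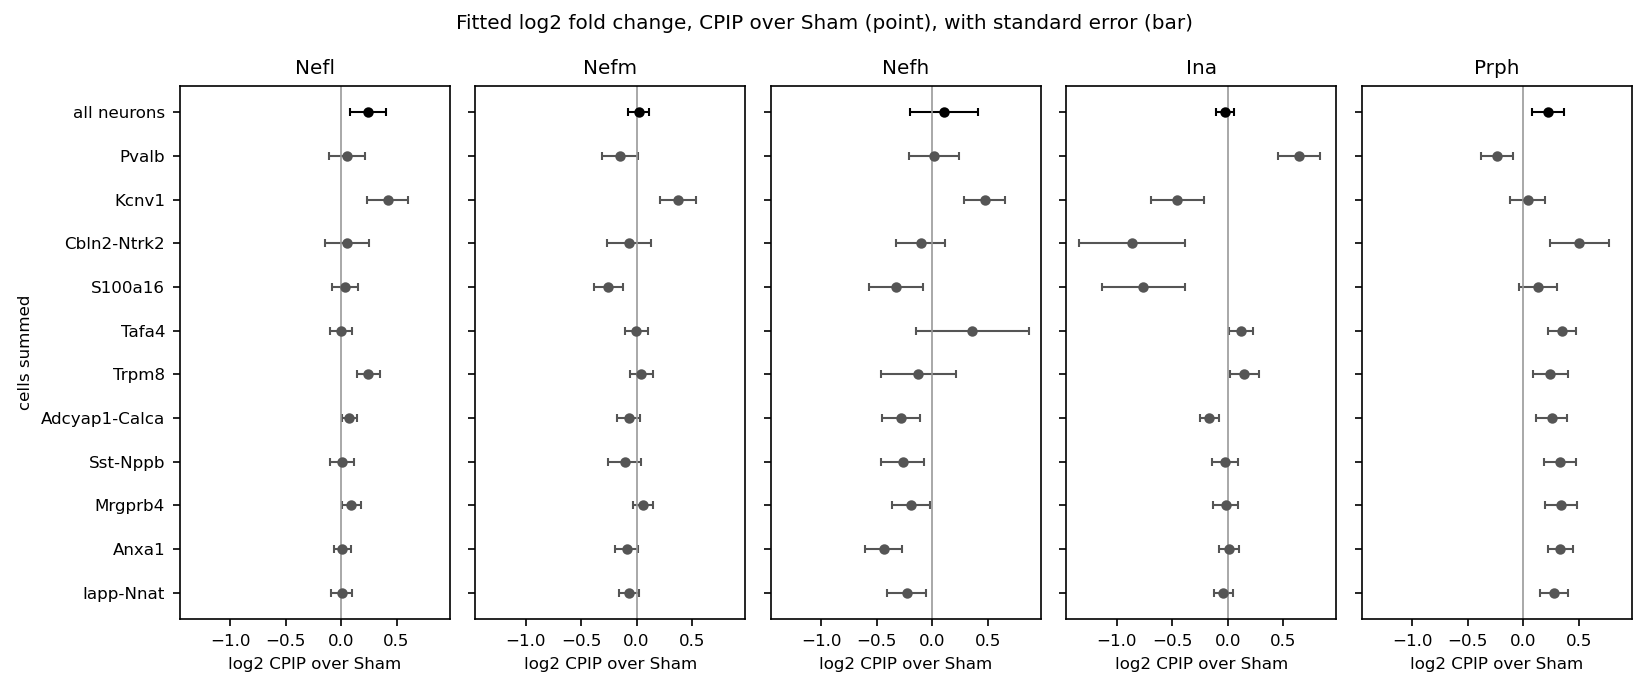
Fitted log2 fold change of CPIP over Sham (point) with its standard error (bar) for each gene in all neurons and in 11 sub-clusters. Prph lies above 0 in every row but Pvalb, Ina ranges from -0.86 in Cbln2-Ntrk2 to 0.64 in Pvalb, and no value passed the adjusted threshold of 0.05.

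Ina in Pvalb gave the value with the smallest unadjusted p of the 55. It had 1045 and 1461 CPM in CPIP, against 855 and 780 CPM in Sham. Both CPIP libraries lay above both Sham libraries, and the log2 fold change was 0.64 ± 0.19 (adjusted p = 0.438). It was 0.87 without CPIP 1 (adjusted p = 0.000749), where 3.94% of all genes were called, and 0.36 without CPIP 2 (adjusted p = 0.939). Without a filter on low counts it was 0.63 (adjusted p = 0.0256), where 1.01% of all genes were called. DESeq2 gave 0.64 (adjusted p = 0.954). In both finer clusters that make up Pvalb the groups overlapped for Ina, as given above. The Pvalb-Spp1 cells, which had the higher Ina level, were more numerous in CPIP. The part of this cell mix in the Ina value was not tested. In the S100a16 and Cbln2-Ntrk2 sub-clusters, where Ina was at background, the values were -0.76 ± 0.37 and -0.86 ± 0.48.

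In Kcnv1 the fitted values of the 3 subunits were positive, and in S100a16 and Cbln2-Ntrk2 those of Nefm and Nefh were negative; none passed the test. Nefl had 3595 and 2338 CPM in CPIP, against 2000 and 2424 CPM in Sham, and the groups overlapped. Its log2 fold change was 0.42 ± 0.19 (adjusted p = 0.894), with 0.71 without CPIP 2 (adjusted p = 7.38e-05), which left the 40 cells of CPIP 1 and called 0.612% of all genes, and 0.065 without CPIP 1 (adjusted p = 0.939). Nefh had 349 and 462 CPM in CPIP, against 275 and 314 CPM in Sham, a log2 fold change of 0.47 ± 0.18 (adjusted p = 0.844), which was 0.63 without CPIP 1 and 0.24 without CPIP 2. In S100a16, Nefh had 229 and 440 CPM in CPIP, against 468 and 368 CPM in Sham, a log2 fold change of -0.32 ± 0.24 (adjusted p = 0.931), which was -0.89 without CPIP 2 (adjusted p = 0.000217), where 0.555% of all genes were called, and 0.061 without CPIP 1 (adjusted p = 0.943). Kcnv1 made up 1.53% and 3.01% of neurons in CPIP, against 2.56% and 6.22% in Sham.

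For Prph both CPIP libraries lay above both Sham libraries in 4 of 11 sub-clusters and below them in 1, Pvalb, where the log2 fold change was -0.23 ± 0.15 (adjusted p = 0.691). Split by the finer clusters, Prph had 690 and 919 CPM in CPIP, against 815 and 1027 CPM in Sham, among the Pcp4 cells, and the groups overlapped. Among the Pvalb-Spp1 cells it had 448 and 516 CPM in CPIP, against 247 and 325 CPM in Sham, with both CPIP libraries above both Sham libraries. Over all gene and sub-cluster pairs with at least 32 CPM, the groups did not overlap in 34.1%, and over all genes tested in neurons in 32.9%. The 5 of 11 for Prph stand beside those shares, and nothing is read from them. Anxa1 gave 0.33 ± 0.11 (adjusted p = 0.890) and Tafa4 0.35 ± 0.13 (adjusted p = 0.834), where Prph had 1177 and 1552 CPM in CPIP, against 1064 and 1080 CPM in Sham. Without CPIP 1, Prph was called in 7 of the 9 sub-clusters tested, namely S100a16, Trpm8, Adcyap1-Calca, Sst-Nppb, Mrgprb4, Anxa1 and Iapp-Nnat, with log2 fold changes of 0.42 to 0.55. Those fits called 2867 of 83313 values over all genes, or 3.44%. Without CPIP 2, where 0.587% were called, Prph was called in none.

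A test of whether the CPIP effect differed between the 9 sub-clusters called 15 of 10933 genes (0.137%), none of them among the 5. Prph gave an unadjusted p of 0.00149 (adjusted p = 0.281) and Ina one of 0.00217 (adjusted p = 0.317), while Nefl, Nefm and Nefh gave unadjusted p of 0.656 to 0.697. Leaving out CPIP 1 changed the outcome for Ina, in a fit with a lone CPIP library, and nothing is read from it.

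The ratios between the genes were compared over all neurons with a two-sided exact permutation test, which with 2 against 2 libraries cannot give a p below 0.33. The Nefm to Nefl ratio was 1.35 and 1.27 in CPIP, against 1.39 and 1.71 in Sham (log2 difference -0.24, exact p = 0.33, adjusted over 4 ratios 0.889). Both CPIP libraries lay below both Sham libraries. The same order held within 4 sub-clusters, and the CPIP mean lay below the Sham mean in all 11, though the libraries overlapped in the other 7. In Tafa4 the means were 1.1483 in CPIP and 1.1487 in Sham. For the other ratios the CPIP mean lay below the Sham mean in 9 of 11 sub-clusters (Nefh to Nefl), 8 (Ina to Nefl) and 2 (Prph to the subunits). The groups did not overlap in 4 sub-clusters for Nefh to Nefl, 5 for Ina to Nefl (CPIP below in 4 and above in 1) and 4 for Prph to the subunits. Levels of single genes did not overlap in 34.1% of pairs, and no such share was computed for ratios. Nothing is read from the 4 for Nefm to Nefl. The log2 difference of Nefm to Nefl in all neurons was -0.39 without Sham 1, -0.085 without Sham 2 and -0.14 with equal weight for each sub-cluster. In Pvalb this ratio was 1.23 and 1.22 in CPIP, against 1.41 and 1.42 in Sham. In S100a16 it was 1.02 and 1.05 in CPIP, against 1.18 and 1.36 in Sham. In Cbln2-Ntrk2 it was 1.03 and 0.988 in CPIP, against 1.08 and 1.12 in Sham. In Trpm8 it was 1.30 and 1.46 in CPIP, against 1.53 and 1.65 in Sham. The sub-clusters share the same 4 libraries and are not replicates. The Nefh to Nefl ratio was 0.0510 and 0.0781 in CPIP, against 0.0743 and 0.0694 in Sham (exact p = 1). The Ina to Nefl ratio was 0.410 and 0.313 in CPIP, against 0.382 and 0.493 in Sham (exact p = 0.667). The ratio of Prph to the subunits was 0.357 and 0.410 in CPIP, against 0.332 and 0.386 in Sham (exact p = 0.667).

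The 6 lists of related genes gave 0 calls in neurons, beside 0% of all genes tested, where the median log2 fold change was 0.0061 and 7033 of 13644 values were positive. Of 11 tested genes for other intermediate filament proteins, 8 were positive, with a median of 0.15, which was 0.31 without CPIP 1, 0.0084 without CPIP 2 and 0.050 without Sham 1. Synm, the large linker synemin, had 591 and 511 CPM in CPIP, against 645 and 569 CPM in Sham. Vim, the vimentin of glia and fibroblasts, had 221 and 264 CPM in CPIP, against 209 and 222 CPM in Sham, beside the glial marker sums given above. Lmna, a nuclear lamin, had 18.5 and 82.2 CPM in CPIP, against 23.7 and 18.9 CPM in Sham, and Sync, which encodes syncoilin, had 39.2 and 40.0 CPM in CPIP, against 44.3 and 44.5 CPM in Sham. Lmna followed Prph in that CPIP 2 alone was high.

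Of 26 genes for kinases, motors, linkers and turnover of neurofilaments, 7 were positive and 19 negative, with a median of -0.028, which was 0.00097 without Sham 1 and -0.057 without Sham 2. Kif5b, a heavy chain of the kinesin that carries neurofilaments outward, had 735 and 665 CPM in CPIP, against 790 and 700 CPM in Sham. Dst, the linker dystonin, had 434 and 414 CPM in CPIP, against 468 and 454 CPM in Sham. Dync1h1, the heavy chain of the retrograde motor dynein, had 198 and 165 CPM in CPIP, against 226 and 220 CPM in Sham (log2 fold change -0.29 ± 0.11, adjusted p = 0.969). Stub1, a ubiquitin ligase, had 24.5 and 66.6 CPM in CPIP, against 28.7 and 25.5 CPM in Sham, again with CPIP 2 alone high.

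Of 23 tubulin and microtubule genes, 9 were positive and 14 negative, with a median of -0.010, which ranged from -0.053 to -0.021 without single libraries. Tuba1a, an alpha-tubulin of neurons, had 7134 and 11448 CPM in CPIP, against 7182 and 7148 CPM in Sham. Tubb3, the neuronal beta-tubulin, had 4758 and 4993 CPM in CPIP, against 4865 and 4896 CPM in Sham. Tubb4a had 540 and 1195 CPM in CPIP, against 654 and 554 CPM in Sham. For Tuba1a and Tubb4a, as for Prph, CPIP 2 lay above the other 3 libraries and CPIP 1 below both Sham libraries. Kif1a, the motor whose profile across sub-clusters resembled that of Ina, had 587 and 577 CPM in CPIP, against 679 and 659 CPM in Sham (log2 fold change -0.19 ± 0.070, adjusted p = 0.969).

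Of 22 genes of large-fibre neurons, 16 were positive, with a median of 0.18, which was 0.33 without CPIP 1, 0.095 without CPIP 2 and 0.31 without Sham 1. Of 13 genes of small-fibre neurons 4 were positive, with a median of -0.075, which was -0.023 without CPIP 1, -0.12 without CPIP 2 and 0.010 without Sham 1. Both lists hold genes that also served to name sub-clusters, and the part of sub-cluster shares in these medians was not tested. Pvalb, the calcium-binding protein parvalbumin, had 40.0 and 68.1 CPM in CPIP, against 17.0 and 15.4 CPM in Sham, a log2 fold change of 1.75 ± 0.25 (adjusted p = 0.969), and its groups did not overlap. Scn4b, a sodium channel subunit, had 251 and 292 CPM in CPIP, against 236 and 190 CPM in Sham. Thy1 had 1546 and 1175 CPM in CPIP, against 1510 and 1475 CPM in Sham, and Cntnap2, an axonal adhesion protein, 86.2 and 95.2 CPM in CPIP, against 93.6 and 106 CPM in Sham. In the small-fibre list, Calca, the gene of the peptide CGRP, had 4615 and 4747 CPM in CPIP, against 4560 and 5617 CPM in Sham. Cd55 had 1755 and 1766 CPM in CPIP, against 1835 and 1762 CPM in Sham. Scn10a, the sodium channel of nociceptors, had 446 and 363 CPM in CPIP, against 512 and 465 CPM in Sham, and Gfra2, a GDNF family receptor, 27.8 and 47.5 CPM in CPIP, against 33.0 and 29.3 CPM in Sham.

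Of 16 tested axon injury genes, 9 were positive, with a median of 0.065. Gap43, the growth cone protein of regrowing axons, had 1679 and 1841 CPM in CPIP, against 1621 and 1698 CPM in Sham. Jun, a transcription factor induced by axon injury, had 164 and 214 CPM in CPIP, against 144 and 181 CPM in Sham. Hspb1, a small heat shock protein, had 82.0 and 130 CPM in CPIP, against 76.1 and 75.8 CPM in Sham (log2 fold change 0.48 ± 0.21, adjusted p = 0.969), and both CPIP libraries lay above both Sham libraries. Crh, a stress peptide, had 53.0 and 25.1 CPM in CPIP, against 52.0 and 31.5 CPM in Sham.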

How the data were processed

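Ganglia were digested with dispase, collagenase I, DNase and papain, and single cells were captured on barcoded beads in microwells (BD Rhapsody, whole transcriptome), per the labels' protocols. The authors deposited an unnormalized matrix of UMI counts for each library, as its whole numbers show. The tools, genome build, annotation and strand setting behind these matrices, and how barcodes were chosen, are not stated in the labels. Counts of near-identical or overlapping genes may therefore be split or shared.

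Cells with at least 200 genes and at most 25% mitochondrial UMIs were kept. Scrublet marked under 0.5% of the cells in 3 of 4 libraries, so the 5% of cells with the highest doublet scores were removed from each library, a rule set after the data had been seen. This left 11566, 11371, 10741 and 10668 cells in CPIP 1, CPIP 2, Sham 1 and Sham 2. Cells were clustered with scanpy (2000 variable genes without the 5 members, 30 components, 15 neighbours, Leiden resolution 1, then 0.5 within neurons) without batch integration. Names came from marker lists with at least 3 detected markers. The rules for low-UMI and mixed clusters, the fold of leading genes against clusters of other classes, the minimum of 30 cells and the thinning to 1000 UMIs were also set after the data had been seen.

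UMIs were summed per library and tested with edgeR's quasi-likelihood test (TMM, default low-count filter, Benjamini-Hochberg over all genes tested, calls at adjusted p under 0.05), 2 CPIP against 2 Sham libraries. Alternatives were DESeq2, other normalization, filters and cell sets, and leaving out each library. With 2 pools per group, p-values measure the spread between these pools. The code was tested on simulated counts. Genes named in the text followed a rule: the 5 members, and per list the 2 with the highest level and those with the highest and lowest log2 fold change among genes of at least 32 CPM, plus for each member the 4 genes with the most similar profile. One gene that this rule named is not reported here. The few calls among other genes are given as counts. The members and lists were chosen with earlier results of these data known. Tool versions were edgeR 4.0.16, DESeq2 1.42.0, R 4.3.3, scanpy 1.11.5 and Python 3.11.15.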

Additional observations from a re-analysis of the deposited data

How the results depend on the processing

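Of 407 recomputed values, 334 kept their direction and their side of the threshold or moved by less than the spread between libraries or, for counts, stayed within 1.5 times. None of the 5 genes was called in all neurons by DESeq2, RLE normalization, no low-count filter, the replicate block or the other sets of cells tried, but Prph was called there without CPIP 1. The number of called genes in neurons, 0, was 1 with RLE size factors, 1 without the low-count filter, 9 with DESeq2, 2 with stricter cells and 1 with low-UMI neuron-like barcodes added. With the replicate block it was 1; the shared numbers come without a statement that they pair samples, and the deviations of CPIP 1 and Sham 1 from their group means correlated at -0.114. With the crossed replicate block, chosen after seeing the data, it was also 1. Leaving out each library gave 0 to 763 called genes, and 763 were called without CPIP 1. A lone library left in a group is assumed to vary like the other group, so such fits compare 1 pool with 2. Over the 9 sub-clusters tested, 6 genes were called in sum, against 874 without the low-count filter (1 of them a member, Ina in Pvalb), 177 with the replicate block, 32 with DESeq2 and 12 to 2867 without single libraries, with 0 to 8 calls of members. Over Kcnv1 and Cbln2-Ntrk2 the 3 calls became 70 without the filter, 14 with the replicate block and 6 to 134 without single libraries, with 0 to 2 calls of members, Nefl and Nefm in Kcnv1 without CPIP 2. The block added no member call.

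Values near 0 changed sign in several settings. With the same mix of sub-clusters, tested by exact permutation over libraries only, Nefm was -0.0587, Nefh -0.0375, Ina 0.0957 and the Ina to Nefl ratio 0.0132 on the log2 scale. Nefm was -0.00996 with the low-UMI barcodes added. Leaving out single libraries gave log2 fold changes in neurons of -0.0679 to 0.101 for Nefm, -0.391 to 0.479 for Nefh, -0.0924 to 0.0436 for Ina and -0.00356 to 0.421 for Prph. For Prph the range was -0.235 to 0.421 in S100a16, -0.0159 to 0.48 in Trpm8 and -0.204 to 0.223 in Kcnv1, where it was -0.017 without the low-count filter. Nefl ranged from 0.0506 to 0.463 in neurons and kept its sign. The log2 difference of the Nefh to Nefl ratio ranged from -0.494 to 0.121, and that of Prph to the subunits from -0.0125 to 0.205. The cause of these changes was not tested.

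Across sub-clusters, the log2 span of Nefl, 5.15, was 4.91 with the members kept among the variable genes, and that of Prph, 1.38, was 2.03 at Leiden resolution 1.0. The other spans moved by less than the spread between libraries; none could be given for Nefh and Ina in thinned cells, since a library had 0 UMIs. For the lists, leaving out single libraries gave 0 to 1 called gene among other intermediate filament proteins, 0 to 4 among kinases, motors, linkers and turnover, 0 to 2 among tubulins, 0 to 7 among large-fibre genes, 0 to 2 among small-fibre genes and 0 to 1 among axon injury genes, each time most without CPIP 1. The median of small-fibre genes ranged from -0.115 to 0.0104 and that of axon injury genes from 0.0589 to 0.1. The 15 genes whose CPIP effect differed between sub-clusters became 6 to 97, and the adjusted p of Ina ranged from 0.00109 to 1. Low counts limit Nefh in Tafa4 and Ina in S100a16 and Cbln2-Ntrk2.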
